A study of Mus musculus with 12 samples.

Results

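The regions described here are stretches of ESRRB binding that lie inside genes, away from the gene ends, and that were found in mouse embryonic stem cells both without and with Nanog. They were chosen by 3 criteria. A row of the deposited count table had to overlap, by 1 bp or more, a peak of the deposited list without Nanog and a peak of the deposited list with Nanog. Its centre had to lie inside the span of a protein-coding gene of RefSeq on the mouse assembly GRCm38.p6 (mm10), here called its host gene. The centre also had to be more than 1 kb from the ends of every such gene. The rule found 13355 of the 86201 regions of the table, or 15.5%, and 40.9% of the 32615 regions present in both lists. They lie in 6195 host genes of the 21896 protein-coding genes of the table. Of these genes, 3379 hold 1 member and 2816 hold more. Both peak lists were made from the libraries whose counts are compared below, so the membership was selected on the same readout, and no difference between these regions and the rest is tested.

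The study mapped ESRRB on chromatin by ChIP-seq, which sequences the DNA pulled down with an antibody to ESRRB, in 2 embryonic stem cell lines. One is titled NanogKO:Esrrb (44J), and is called without Nanog. The other is titled NanogKO:Esrrb:Nanog (44JN) and is called with Nanog. Each has 3 ESRRB ChIP libraries, lettered A, B and C in the table, and 3 input libraries that are not analysed here. All samples carry the cell line label N{delta}:cE:iN, and by their titles both lines share a knockout of Nanog and the name of Esrrb. The labels do not say how the lines were made or whether either line is a single clone. Cells of both grew untreated in serum with leukaemia inhibitory factor (LIF). Chromatin was fixed with formaldehyde, alone or followed by di(N-succinimidyl) glutarate; the labels do not tie either way of fixing to a sample. An ESRRB ChIP table does not hold the expression of marker genes, so the labelled cell type was not checked against them.

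ESRRB is an orphan nuclear receptor that binds DNA as a monomer or a dimer at an extended nuclear receptor half-site, and in embryonic stem cells it sustains self-renewal together with NANOG, OCT4, SOX2 and KLF factors. NANOG is a homeodomain protein that activates Esrrb and shares many bound sites with it. Binding inside genes but far from their ends is typical of enhancers, which act on the host gene or on a neighbour. Which gene a region acts on is not shown by binding, and the host gene names below state position alone.

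The element of ESRRB was looked for where sequence was at hand. The RefSeq start windows of mm10 run from 250 bases before to 50 bases after an annotated transcript start, and they touch few of these regions, since the rule keeps regions away from gene ends. Start windows of the host gene itself overlapped 377 of the 13355 members, at starts internal to the gene span. Another 120 members were overlapped by windows of another gene only. The extended half-site TCAAGGTCA, searched on both strands, lay in 5 of the 267 windows wholly inside members (1.87%), against 139 of all 32851 start windows (0.423%). The core AAGGTCA, which every TCAAGGTCA also holds, lay in 39 of the 267 (14.6%) and in 4.72% of all windows. In the 1214 windows wholly inside gene-end regions of both peak lists the shares were 1.32% and 12.3%. The octamer ATTTGCAT, the letters of an OCT factor site that serve here as a comparison, lay in 3 of the 267 (1.12%) and in 1.74% of all windows. A match describes these letters and is not shown to be a bound site.

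All 5 host gene windows that hold the extended half-site are printed, because they place the element of the immunoprecipitated factor inside regions of known signal. Each is the 250 bases before the start, 5′ to 3′ on the strand of the gene, and capitals mark the element, here always as its reverse complement TGACCTTGA. The Atp5g3 sequence is at chr2:73911327-73911576 (minus strand), that of Tmem191c at chr16:17276050-17276299 (plus) and that of Gjb1 at chrX:101381868-101382117 (plus). The Sgk1 sequence is at chr10:21978422-21978671 (plus) and that of Aptx at chr4:40702917-40703166 (minus).
Atp5g3: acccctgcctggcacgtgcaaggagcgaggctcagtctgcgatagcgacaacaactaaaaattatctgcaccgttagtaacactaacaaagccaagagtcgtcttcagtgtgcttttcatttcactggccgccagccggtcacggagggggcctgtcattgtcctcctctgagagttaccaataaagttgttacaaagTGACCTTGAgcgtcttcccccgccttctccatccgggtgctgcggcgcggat
Tmem191c: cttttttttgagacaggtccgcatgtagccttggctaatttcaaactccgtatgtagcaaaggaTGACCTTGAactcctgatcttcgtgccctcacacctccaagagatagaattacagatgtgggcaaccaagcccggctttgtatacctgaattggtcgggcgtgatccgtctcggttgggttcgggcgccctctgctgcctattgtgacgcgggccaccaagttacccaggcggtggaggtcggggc
Gjb1: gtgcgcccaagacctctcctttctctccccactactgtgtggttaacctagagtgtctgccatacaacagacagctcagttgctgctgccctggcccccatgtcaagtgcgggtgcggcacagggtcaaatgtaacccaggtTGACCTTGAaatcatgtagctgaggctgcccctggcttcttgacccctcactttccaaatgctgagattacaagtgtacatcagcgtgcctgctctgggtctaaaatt
Sgk1: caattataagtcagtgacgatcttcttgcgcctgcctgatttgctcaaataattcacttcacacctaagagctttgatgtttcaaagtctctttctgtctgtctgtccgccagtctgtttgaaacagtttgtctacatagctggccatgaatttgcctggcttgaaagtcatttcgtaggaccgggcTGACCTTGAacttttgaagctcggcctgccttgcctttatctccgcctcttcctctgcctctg
Aptx: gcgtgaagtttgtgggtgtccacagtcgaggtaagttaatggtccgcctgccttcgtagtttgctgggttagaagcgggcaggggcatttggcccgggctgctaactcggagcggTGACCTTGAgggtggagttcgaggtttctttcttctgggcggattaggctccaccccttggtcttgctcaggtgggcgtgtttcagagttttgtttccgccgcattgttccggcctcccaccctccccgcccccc

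Signal below is in CPM, which are counts relative to the library's total over the tested regions, not over all its reads, scaled by TMM. A change shared by all regions would not show in these values. Every call of a higher or lower region is from the quasi-likelihood test of edgeR, with a Benjamini-Hochberg adjusted p under 0.05 over all 84892 regions tested. A log2 fold change is that of signal with Nanog over signal without Nanog, given with its standard error (SE). The Atp5g3 region, at the start of a gene for a subunit of mitochondrial ATP synthase, had 210, 162 and 186 CPM without Nanog and 163, 134 and 153 CPM with Nanog. These libraries overlapped, and the region was lower by edgeR at a log2 fold change of -0.31 ± 0.10 (adjusted p = 0.0305). That call was lost without library A or C without Nanog and without library B or C with Nanog (edgeR, adjusted p = 0.212, 0.0857, 0.200 and 0.0933). It was also lost under DESeq2 (adjusted p = 0.101), column totals (edgeR, 0.0614) and upper quartile scaling (0.0661), with TMM over the members alone (log2 fold change -0.14, adjusted p = 0.296) and with a loess offset on signal (-0.08, adjusted p = 0.534). The Tmem191c region, in a gene for a transmembrane protein, had 109, 94.2 and 109 CPM without Nanog and 64.7, 59.3 and 63.5 CPM with Nanog. Every library without Nanog was above every library with Nanog there, and the log2 fold change was -0.74 ± 0.11 (edgeR, adjusted p = 1.23e-05). The other 3 regions had lower signal in both lines. Gjb1, for the gap junction protein connexin 32, had 25.7 ± 3.17 CPM without and 21.9 ± 2.33 CPM with Nanog (SD, n = 3), and was not called. Sgk1, for a kinase induced by serum and glucocorticoid, had 25.5 ± 0.802 and 21.5 ± 0.839 CPM, and was not called. Aptx, for the DNA repair protein aprataxin, had 22.1 ± 2.76 and 19.0 ± 2.21 CPM, and was not called. So the same element stood in regions whose mean signal without Nanog went from 22.1 to 186 CPM.

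Of the windows that hold the core without the longer element, the 3 in the regions of highest signal are shown for contrast, with the core in capitals, which in Lifr is its reverse complement TGACCTT. They are at chr5:23676461-23676710 (Srpk2, minus strand), chr2:32628140-32628389 (Ak1, plus) and chr15:7129322-7129571 (Lifr, plus).
Srpk2: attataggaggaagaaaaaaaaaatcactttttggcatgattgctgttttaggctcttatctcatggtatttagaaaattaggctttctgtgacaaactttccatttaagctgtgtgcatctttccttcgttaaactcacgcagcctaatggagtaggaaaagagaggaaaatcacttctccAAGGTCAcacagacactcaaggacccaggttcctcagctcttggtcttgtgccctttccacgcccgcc
Ak1: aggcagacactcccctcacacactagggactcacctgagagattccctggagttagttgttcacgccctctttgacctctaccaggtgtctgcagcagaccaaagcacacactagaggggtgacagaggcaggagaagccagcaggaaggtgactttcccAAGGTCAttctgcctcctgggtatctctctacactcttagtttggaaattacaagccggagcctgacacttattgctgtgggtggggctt
Lifr: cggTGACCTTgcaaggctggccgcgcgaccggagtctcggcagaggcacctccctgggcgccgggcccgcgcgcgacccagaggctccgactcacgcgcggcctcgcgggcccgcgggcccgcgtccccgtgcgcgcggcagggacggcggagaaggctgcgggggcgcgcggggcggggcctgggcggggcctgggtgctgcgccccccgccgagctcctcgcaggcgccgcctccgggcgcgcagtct

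Ak1 encodes an adenylate kinase, and its region had 68.2, 73.2 and 73.0 CPM without Nanog and 44.6, 49.5 and 44.1 CPM with Nanog, with no overlap. It fell by 0.63 on the log2 scale, with SE 0.12 (edgeR, adjusted p = 0.000219). Srpk2, for a kinase of SR splicing factors, had 61.6 ± 6.21 CPM without and 58.0 ± 1.35 CPM with Nanog (SD, n = 3), and was not called. Lifr encodes the LIF receptor, and the region at this start had 55.7 ± 1.37 and 52.0 ± 4.75 CPM (SD, n = 3) and was not called.

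Over all members the signal was a little lower with Nanog than without. Of the 13355 members, 1140 (8.54%) were higher with Nanog, 2637 (19.7%) were lower and 9578 were not called. As background, 9.42% of all tested regions were higher and 9.78% were lower. Since the peak lists that chose the members came from these libraries, nothing is read from the difference between these shares. The median log2 fold change was -0.18 (quartiles -0.48 and 0.13), against -0.01 over all regions. At a change of at least 2-fold as well, 138 members were higher and 412 lower, where 4.38% of all tested regions were higher and 2.09% lower. All 13355 members passed the count filter. The median member had 15.3, 14.9 and 15.3 CPM in the libraries without Nanog, and 13.9, 14.0 and 14.5 CPM with Nanog. Every library without Nanog was thus above every library with Nanog in this median. The members were chosen from these libraries and the median depends on the scaling, so this order is no support for a difference. The called members changed modestly: the higher ones had a median log2 fold change of 0.65 (quartiles 0.54 and 0.82) and the lower ones -0.73 (quartiles -0.90 and -0.59). There was no overlap between lines in 1106 of these higher regions, nor in 2439 of these lower regions.

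This balance rests on the scaling. With TMM factors computed over the members alone, 1891 were higher and 1381 lower, and the median was -0.02, so the excess of lower over higher calls turned round. Leaving out 1 library also moved the counts: without library B with Nanog 738 were higher and 1463 lower, and without library C with Nanog 754 were higher. Without library A with Nanog 1628 were lower, and without library C without Nanog 1725 were lower. Libraries held 2734338 to 8382646 counts in regions, with every library without Nanog below every library with Nanog, and 27.6 to 28.6% of counts lay in members without Nanog against 26.6 to 27.3% with Nanog. After thinning to equal totals 904 members were higher and 1612 lower.

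Members were compared with the other regions of both peak lists by place. Of the 15114 regions outside genes, 1149 (7.60%) were higher and 3672 (24.3%) lower, with a median log2 fold change of -0.24. Among the 4146 regions at gene ends, 124 (2.99%) were higher and 469 (11.3%) lower, with a median of -0.09. Intragenic distal regions lay between these groups in their share of lower calls and in their median. Regions of the same kind that only the list with Nanog holds are different by choice: of 23266 tested, 2866 were higher and 404 lower. The regions nearest to the threshold of 1 kb are given for scale. Siah1a, with a region just inside it, had 36.2, 29.5 and 41.0 CPM without Nanog and 39.4, 34.8 and 34.9 CPM with Nanog. Ddn, also just inside, had 10.8, 6.45 and 9.02 CPM and 12.7, 14.7 and 11.8 CPM. Just outside, Ccsap had 42.9, 50.5 and 44.9 CPM without and 50.9, 43.2 and 45.4 CPM with Nanog, and Rpl37a had 9.69, 11.2 and 14.1 CPM and 11.8, 14.2 and 13.5 CPM.

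**Figure D1:**
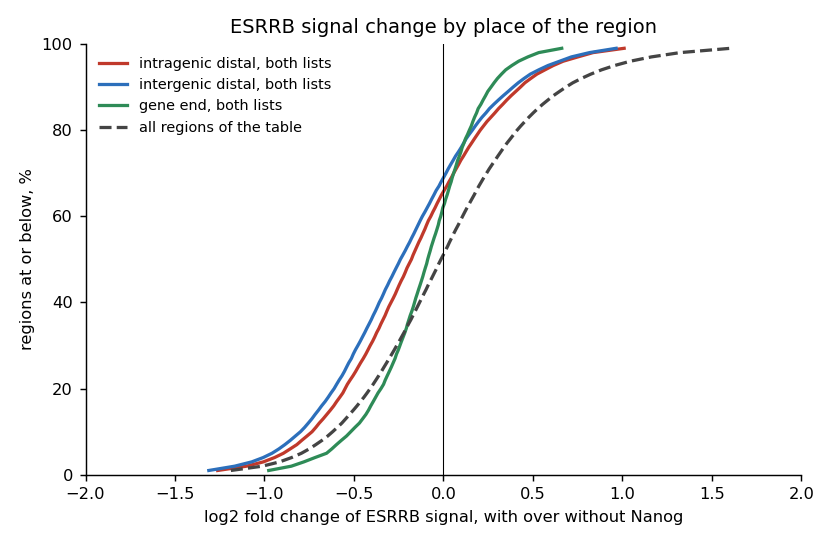
The share of regions at or below each log2 fold change of ESRRB signal (with over without Nanog), from the 1st to the 99th percentile, for intragenic distal, intergenic distal and gene-end regions of both peak lists and for all regions. The curve of intragenic distal regions, with a median of -0.18, lies between those of intergenic regions (-0.24) and of gene ends (-0.09) at its middle.

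Strength and width went with the direction of change. Members were split into 5 equal classes. In the class with the lowest mean signal, 4 of 2671 were higher and 665 lower, and the median log2 fold change was -0.45. In the class with the highest signal, 418 were higher and 612 lower, and the median was -0.07. Width showed the larger contrast. In the narrowest class, of 125 to 369 bp, 2 of 2700 members were higher and 796 lower. In the widest, of 789 to 4042 bp, 498 of 2671 were higher and 401 lower, and this was the one class by width where higher calls exceeded lower ones. Intergenic regions cut at the same limits went the same way, with 7 higher and 1184 lower of 3394 in the narrowest class and 556 higher and 553 lower of 3107 in the widest. By signal, the lowest intergenic class had 1 higher and 954 lower of 3070. Mean signal and width both come from the libraries that gave the peak lists, so these counts are a description. A weak or narrow region is a member only if it has a peak without Nanog, in the libraries with fewer counts. Its direction of change cannot be told apart from that choice. The median member was 513 bp wide, and peaks of the list without Nanog covered a median of 64.9% of a member, against 100% for the list with Nanog.

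**Figure D2:**
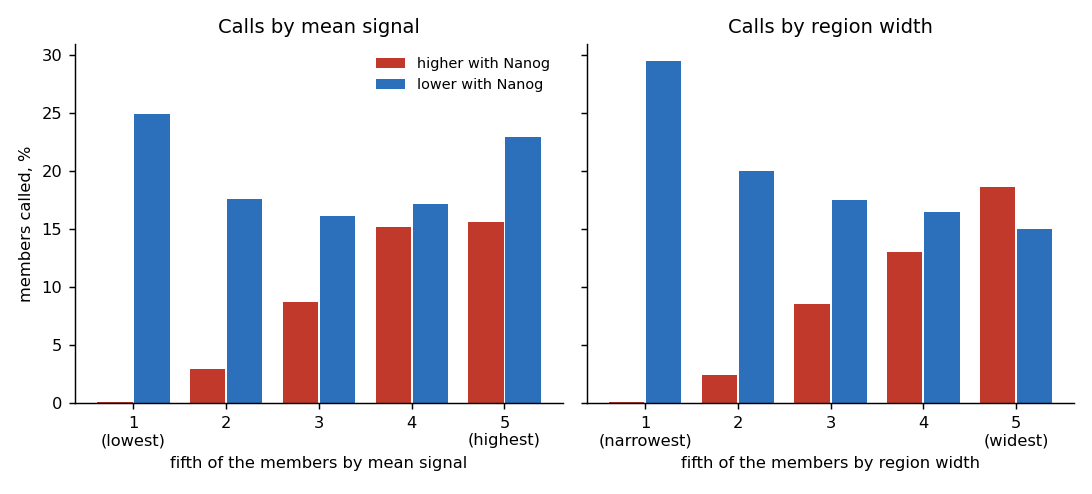
Percent of intragenic distal members called higher (red) or lower (blue) with Nanog, in 5 equal classes of the members by mean signal (left) and by region width (right). Higher calls go from 0.150% to 15.6% by signal and from 0.0741% to 18.6% by width, while lower calls stay between 15.0% and 29.5%.

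Position inside the gene, which the rule used only for its limit of 1 kb, went with smaller differences. Of the 2939 members between 1 and 5 kb from a host gene end, 5.99% were higher and 18.5% lower. Of the 3088 members more than 50 kb away, 9.84% were higher and 21.4% lower, and the classes in between held 8.68% and 9.47% higher. The strand of the host gene was known for 10633 members. With each gene cut into 5 equal stretches, 17.7% of 2590 members were lower in the stretch next to the start and 23.1% of 1777 in that next to the end. Higher calls were most frequent in the middle stretch, at 10.6% of 2046, against 7.30% in the first and 7.54% in the last. Members inside genes over 300 kb long were lower in 23.4% of 2217 cases, and those in genes under 20 kb in 19.1% of 1557. On the X chromosome 11 of 173 members were higher (6.36%) and 31 lower (17.9%), against 8.56% and 19.8% on autosomes. Of the 377 members at an internal start of the host gene, 15 were higher (3.98%) and 41 lower (10.9%). Members with no start window were higher in 8.65% and lower in 20.1% of 12858 cases, and all tested regions in 9.42% and 9.78%. The signal of those 377 was above that of other members, with medians of 21.9 CPM without and 20.9 CPM with Nanog. Exons and introns were not told apart, since no annotation of them was used here.

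Single regions changed much more than the median. The plot of 23 regions by library shows 11 increases and 12 decreases, which are among the 12 largest each way of called members that had at least median signal and no overlap between lines. They were picked by size, so their folds are a description of the extremes. Dusp16 encodes a phosphatase of MAP kinases, and its region at chr6:134804590-134805359, 2.09 kb from the gene start, had 13.4, 10.9 and 11.2 CPM without Nanog and 40.7, 49.2 and 45.1 CPM with Nanog. Each library with Nanog was thus above 40 CPM where none without Nanog reached 14, a log2 fold change of 1.94 ± 0.16 (SE; edgeR, adjusted p = 1.27e-09). Acvr1b encodes a type I receptor for activin and Nodal, and its region at chr15:101180742-101181639 had 15.3, 13.2 and 13.9 CPM without and 43.2, 53.1 and 48.8 CPM with Nanog. It rose by 1.78 ± 0.15 on the log2 scale (SE; edgeR, adjusted p = 2.61e-09). Smarcc1 encodes a core subunit of the BAF chromatin remodelling complex, and its region at chr9:110205968-110206449 had 10.4, 11.2 and 7.45 CPM without and 25.8, 32.2 and 28.3 CPM with Nanog. The rise was 1.60 ± 0.19 (SE; edgeR, adjusted p = 5.39e-07), with the groups again apart.

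Among the other large increases, Arhgef2, for an exchange factor of small GTPases, had 16.03, 13.2 and 13.1 CPM without and 41.4, 54.5 and 39.6 CPM with Nanog. Wasf3, for a WAVE protein that promotes actin branching, had 13.4, 21.9 and 19.6 CPM without and 50.6, 62.5 and 58.2 CPM with Nanog. Ina, for a neuronal intermediate filament protein, had 16.4, 13.7 and 15.1 CPM and 41.6, 42.7 and 45.2 CPM. These were 3.24, 3.06 and 2.87 times as strong with Nanog (log2 fold changes of 1.70, 1.62 and 1.52). Others were regions of Ky (1.83), Txnrd1 (1.69), Thada (1.67), Pdzrn4 (1.61) and Accsl (1.52), of which Txnrd1 encodes the cytosolic thioredoxin reductase.

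Among the decreases, Ppm1h encodes a phosphatase that acts on Rab GTPases, and its region at chr10:122870118-122870745 had 39.9, 31.7 and 40.2 CPM without Nanog and 11.4, 5.78 and 9.43 CPM with Nanog. It fell by 2.09 on the log2 scale, with SE 0.19 (edgeR, adjusted p = 8.39e-09). Rbfox1 encodes a neuronal splicing regulator, and its region at chr16:7081590-7082170 had 40.6, 39.3 and 50.2 CPM without and 14.0, 6.72 and 13.1 CPM with Nanog. Hmmr encodes a hyaluronan receptor that also acts at the mitotic spindle, and its region at chr11:40718013-40718621 had 42.9, 43.5 and 37.5 CPM without and 12.5, 10.5 and 9.05 CPM with Nanog. They were 3.91 and 3.85 times as strong without Nanog, at -1.97 ± 0.19 and -1.94 ± 0.16 (SE). Tex21, for a testis-expressed protein, had the strongest of these regions together with Rufy3: 105, 67.6 and 107 CPM without and 33.1, 19.3 and 28.0 CPM with Nanog. Rufy3, for an adaptor known from neurons, had 101, 83.9 and 86.7 CPM without and 32.4, 19.2 and 31.6 CPM with Nanog. Kndc1, for an exchange factor of Ras in neurons, was the most even, with 71.2, 67.6 and 71.4 CPM without and 23.6, 21.5 and 22.7 CPM with Nanog. The other 6 were regions of Knop1 (-2.19), Sorcs1 (-1.86), Megf6 (-1.76), Dnaic1 (-1.67), Cacna2d2 (-1.56) and Iqsec1 (-1.54). Cacna2d2 encodes an auxiliary subunit of voltage-gated calcium channels, Dnaic1 an axonemal dynein chain and Sorcs1 a sorting receptor. All 23 of these calls were kept under each alternative fit that tested them.

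**Figure D3:**
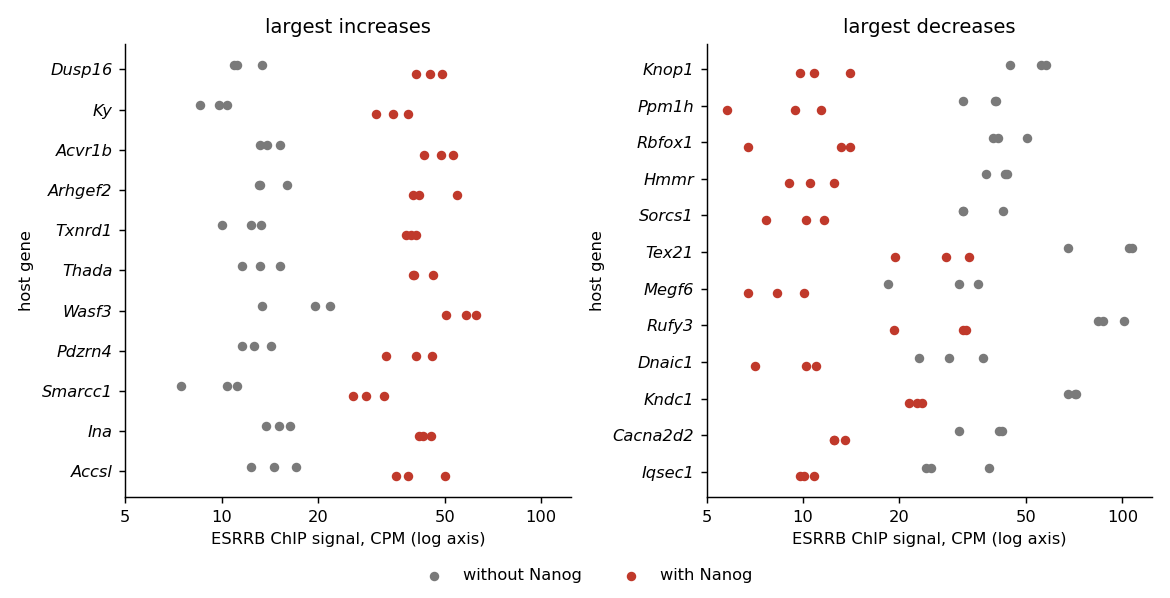
ESRRB signal in CPM (log axis) in each of 3 libraries without Nanog (grey) and 3 with Nanog (red), for 11 of the largest increases (left) and the 12 largest decreases (right) among members of at least median signal. Each row is 1 region, with 1 per host gene and named by it, and the grey and red points do not overlap in any row, as the rule that picked them required.

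The strongest regions were mostly lower with Nanog, and by less. Of the 10 members with the highest mean signal, taken as 1 per host gene, 8 were called lower and none higher. For scale, 15.6% of the highest of the 5 classes by signal were higher and 22.9% lower. Of all tested regions 9.42% were higher and 9.78% lower. Sntb2, for the membrane adaptor syntrophin beta 2, had 365, 309 and 327 CPM without and 230, 195 and 233 CPM with Nanog at chr8:106963132-106965526. Capn2, for the large subunit of a calcium-dependent protease, had 298, 246 and 216 CPM without and 149, 128 and 137 CPM with Nanog at chr1:182500227-182501603. Ino80, for the ATPase of a chromatin remodelling complex, had 233, 202 and 219 CPM without and 164, 144 and 168 CPM with Nanog at chr2:119462769-119464419. In none of these 3 did the groups overlap. Their log2 fold changes were -0.60 ± 0.09, -0.87 ± 0.10 and -0.46 ± 0.09 (SE; edgeR, adjusted p = 1.63e-05, 4.45e-07 and 0.000671).

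The smaller decreases in this group were less secure. Manba, for the lysosomal enzyme beta-mannosidase, had 309, 265 and 294 CPM without and 239, 211 and 233 CPM with Nanog, a log2 fold change of -0.35 ± 0.09 (SE). Etl4 (-0.31), Ppp1r9a (-0.32) and Agtrap (-0.29) were called as well. With TMM over the members alone these 4 calls were lost, at log2 fold changes of -0.18, -0.15, -0.16 and -0.13. With a loess offset on signal the log2 fold changes were -0.07, -0.05, -0.07 and -0.05 (edgeR, adjusted p from 0.536 to 0.691). Under DESeq2 the calls of Etl4 and Agtrap were lost (adjusted p = 0.0651 and 0.0636). Leaving out 1 library also ended them: without library B with Nanog for Manba, Etl4 and Agtrap (edgeR, adjusted p = 0.0533, 0.123 and 0.132) and without library A with Nanog for Ppp1r9a and Agtrap (0.0704 and 0.0540). Etl4 and Agtrap lost it in addition without library C with Nanog (0.0656 and 0.0614) and without library A without Nanog (0.149 and 0.113). Jam2, for a junctional adhesion molecule, had 199, 199 and 176 CPM without and 190, 187 and 186 CPM with Nanog, and was not called. Btbd11 had 226, 164 and 207 CPM without and 181, 184 and 192 CPM with Nanog, and was not called. The Sfi1 region had 323, 247 and 246 CPM without and 181, 138 and 161 CPM with Nanog, but it lies in a stretch of mm10 known for reads from near-identical copies, so its values are uncertain.

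Calls were also counted by list of host genes. For scale, 8.54% of all members were higher and 19.7% lower, and 9.42% and 9.78% of all tested regions. From a list of 19 naive pluripotency genes, 10 held 36 members, and 10 of these members lay in Manba alone. Of all 36 members 3 (8.33%) were higher and 1 (2.78%) was lower, with a median log2 fold change of 0.03. TMM over the members alone gave 9 higher and 0 lower, and single libraries left out gave 2 to 5 higher and 0 to 2 lower. The 3 higher ones lay in Esrrb, Nr5a2 and Zfp42, and the lower one was that of Manba. Zfp42 (also Rex1), a widely used marker of naive cells, had 10.4, 8.98 and 8.24 CPM without and 13.3, 14.2 and 13.8 CPM with Nanog at that region. Its log2 fold change of 0.60 ± 0.21 (SE; edgeR, adjusted p = 0.0391) was called. The call was lost without library A, B or C with Nanog (edgeR, adjusted p = 0.0779, 0.115 and 0.102) and without library C without Nanog (0.146). It was also lost under DESeq2 (adjusted p = 0.0904) and after thinning (edgeR, adjusted p = 0.138). The strongest region of Nr5a2, for an orphan nuclear receptor, had 130, 116 and 130 CPM without and 122, 105 and 121 CPM with Nanog, and was not called. The strongest region in Lifr, at chr15:7115158-7117580, had 193, 157 and 179 CPM without and 166, 157 and 169 CPM with Nanog, and was not called. In the list of LIF, JAK and STAT3 signalling 1 of 28 members was higher and 1 lower (3.57% each). The lower one is a region of Pik3r1, for a regulatory subunit of PI3 kinase, with 42.5, 53.9 and 42.8 CPM without and 24.1, 21.8 and 25.6 CPM with Nanog. It fell by 0.96, with SE 0.14 (edgeR, adjusted p = 1.47e-05), and its groups were apart. For that list single libraries left out gave 0 to 1 higher and 1 to 3 lower, and DESeq2 gave 0 higher and 1 lower.

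Genes for FGF and ERK signalling, which drives the exit from self-renewal, held 69 members in 31 of 44 genes, with 12 higher, 10 lower and a median log2 fold change of -0.06. These are 17.4% and 14.5% of its members. With TMM over the members alone 17 were higher and 6 lower, and with each library left out in turn 8 to 13 were higher and 6 to 12 lower. Mras, for a RAS-related GTPase, had 10.4, 16.5 and 15.7 CPM without and 31.5, 41.7 and 37.2 CPM with Nanog, at 1.34 ± 0.17. Elk1, for a transcription factor phosphorylated by ERK, had 12.7, 17.95 and 14.3 CPM without and 27.4, 32.5 and 31.2 CPM with Nanog, at 1.01 ± 0.17. In both the libraries of the lines were apart. By gene, Etv5, for a transcription factor downstream of FGF, had 3 of its 8 members higher and none lower. Fgfr2, for a receptor of the pathway, had 4 of its 10 members lower and none higher, and Map2k1, for MEK1, had 2 of 3 lower.

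WNT signalling stabilises beta-catenin and relieves repression by TCF7L1 in these cells. Its list held 88 members in 33 of 64 genes, with 7 higher, 22 lower and a median log2 fold change of -0.20. Prickle2 and Vangl1 act in planar cell polarity, ROR1 and ROR2 are receptors of WNT5A, and LEF1 is a nuclear partner of beta-catenin. Of the genes in the list, 3 had only higher calls, 10 only lower calls and 4 both. Prickle2 had 3 of 5 members lower and Ror1 4 of 10 lower with 1 higher. Ror2 had 1 of 8 higher and 1 lower, and Tcf7l1 1 of 9 higher and 2 lower. Fzd5, for a WNT receptor, had 1 of 3 higher and none lower. Lef1 had 2 of 4 lower, and Rnf43, for a ubiquitin ligase that removes WNT receptors, had 2 of 4 lower. The strongest region of Vangl1, at chr3:102167454-102168700, had 137, 115 and 142 CPM without and 93.8, 89.0 and 96.2 CPM with Nanog. It fell by 0.50, with SE 0.10 (edgeR, adjusted p = 0.000782), while another Vangl1 member was higher. TMM over the members alone gave 12 higher and 11 lower, and leaving out each library in turn gave 4 to 8 higher and 12 to 19 lower. Of the 46 members of TGF-beta, Nodal and BMP signalling 4 (8.70%) were higher and 3 (6.52%) lower. They included Ltbp1, for a protein that holds latent TGF-beta in the matrix, with 30.6, 26.9 and 35.3 CPM without and 16.6, 15.6 and 20.9 CPM with Nanog, a fall of 0.82 with SE 0.16. For that list TMM over the members alone gave 7 higher and 1 lower. Single libraries left out gave 2 to 4 higher and 1 to 7 lower.

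Nuclear receptors and their coregulators, the family and the partners of ESRRB itself, held 86 members in 31 of 42 genes. Of these members 8 (9.30%) were higher and 17 (19.8%) lower, shares close to those of all members, with a median of -0.12. TMM over the members alone gave 13 higher and 7 lower, and single libraries left out gave 5 to 12 higher and 6 to 14 lower. Nrip1 encodes a corepressor of nuclear receptors, and its strongest region at chr16:76321127-76322249 had 140, 127 and 128 CPM without and 76.7, 80.3 and 80.7 CPM with Nanog. It fell by 0.73, with SE 0.10 (edgeR, adjusted p = 4.68e-06), and 3 of the 5 members of the gene were lower. Rara encodes a retinoic acid receptor, and its strongest region at chr11:98962208-98965112 had 78.3, 69.6 and 90.0 CPM without and 113, 110 and 108 CPM with Nanog. It rose by 0.47 ± 0.11 (SE; edgeR, adjusted p = 0.00216), and of the 4 Rara members 2 were higher and 1 lower.

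Chromatin regulators had calls in both directions. Polycomb and histone-modifying enzymes held 104 members in 40 of 72 genes, with 13 higher (12.5%) and 14 lower (13.5%). TMM over the members alone gave 17 higher and 4 lower. Single libraries left out gave 8 to 13 higher and 4 to 17 lower. Kmt2c, for a methyltransferase of histone H3 at enhancers, had 22.0, 22.2 and 13.1 CPM without and 33.0, 41.2 and 35.4 CPM with Nanog. Setdb1, for a methyltransferase that silences retroviral elements, had 23.8 ± 4.21 CPM without and 41.6 ± 0.628 CPM with Nanog (SD, n = 3). Kdm5b, for a histone demethylase, had 40.6, 45.2 and 46.1 CPM without and 65.3, 63.9 and 66.4 CPM with Nanog. These 3 rose by 0.98, 0.82 and 0.56 on the log2 scale, each with its groups apart. By gene, Jarid2, for a partner of the Polycomb complex PRC2, had 3 of 7 members higher and none lower, and Prdm16 had 4 of 11 lower and none higher. Of 29 members in genes of DNA methylation and demethylation, 1 (3.45%) was higher, in Tet2, and 4 (13.8%) were lower. Dnmt1, for the maintenance methyltransferase, had 11.6, 11.5 and 14.3 CPM without and 4.67, 3.89 and 4.97 CPM with Nanog at chr9:20913286-20913592. It fell by 1.49, with SE 0.23 (edgeR, adjusted p = 3.39e-05). The strongest region of Tet2, for an enzyme that oxidises methylcytosine, had 165, 159 and 139 CPM without and 131, 129 and 130 CPM with Nanog. Its groups were apart and its adjusted p missed the threshold (edgeR, adjusted p = 0.0719, log2 fold change -0.24 ± 0.10). Without library C without Nanog it was called (log2 fold change -0.31, adjusted p = 0.0428). It was also called after thinning (edgeR, adjusted p = 0.0461), with a minimum mean count of 50 (0.0477) and with column letters as a block (0.00613).

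Lineage genes were mixed. Primitive endoderm genes held 37 members in 16 of 22 genes, with 4 higher (10.8%), 11 lower (29.7%) and a median of -0.05. Under TMM over the members alone the list had 6 of each, and with each library left out in turn 2 to 4 were higher and 5 to 9 lower. Srgn, for the proteoglycan serglycin, had 14.9, 11.2 and 15.7 CPM without and 5.98, 8.49 and 8.15 CPM with Nanog. Srgn thus fell by 0.88, with SE 0.22 and groups apart, and both members of Hnf4a were lower. Trophoblast genes held 18 members, 3 higher (16.7%) and 5 lower (27.8%). Of the 9 members of Tead1, for a partner of the coactivator YAP, 3 were lower. Its strongest region had 188, 156 and 175 CPM without and 123, 117 and 129 CPM with Nanog, a fall of 0.49 with SE 0.10 (edgeR, adjusted p = 0.000494). Regions of Eomes and Tead4, both for transcription factors of trophoblast, were higher, with groups apart. Eomes had 17.2, 17.7 and 17.1 CPM without and 22.3, 29.2 and 26.8 CPM with Nanog, at 0.60 ± 0.17 (SE; edgeR, adjusted p = 0.0106). Tead4 had 67.5, 72.9 and 64.1 CPM without and 84.6, 103 and 91.5 CPM with Nanog, at 0.45 ± 0.11 (SE; edgeR, adjusted p = 0.00411). Both calls were lost without library B with Nanog (edgeR, adjusted p = 0.0784 and 0.0507), and that of Eomes after thinning (log2 fold change 0.35, adjusted p = 0.251). The mesendoderm and neuroectoderm list had 6 of 33 higher (18.2%) and 4 lower (12.1%). Formative and primed epiblast genes had 0 of 10 higher and 2 lower, both in Lef1. Among 22 members in genes of general pluripotency 3 were higher and 3 lower (13.6% each), and with TMM over the members alone 6 and 1. Mybl2, for a MYB factor of the cell cycle, had the strongest of these, with 157, 149 and 146 CPM without and 100, 106 and 116 CPM with Nanog.

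Mitochondrial and glycolytic genes held 60 members, 5 higher (8.33%) and 10 lower (16.7%), and with TMM over the members alone 9 higher and 6 lower. Idh2, for a mitochondrial isocitrate dehydrogenase, had 15.3, 23.3 and 15.7 CPM without and 33.0, 38.3 and 34.3 CPM with Nanog. Aldoa, for a glycolytic aldolase, had 88.4, 82.5 and 107 CPM without and 59.2, 60.4 and 66.8 CPM with Nanog. Cox4i1, for a subunit of cytochrome c oxidase, had 7.46, 9.82 and 7.06 CPM without and 17.6, 17.9 and 15.8 CPM with Nanog. So 2 of these 3 rose (0.96 and 1.08) and 1 fell (-0.58), each with groups apart. Genes of cell adhesion held 211 members, 18 higher (8.53%) and 41 lower (19.4%), shares close to those of all members. With TMM over the members alone 28 were higher and 32 lower. Epcam (-1.08 ± 0.17) and Ptprd (-0.79 ± 0.12) each had a region that fell (SE). Epcam encodes an adhesion molecule of epithelia and stem cells, and its region had 27.6, 31.4 and 39.0 CPM without and 17.8, 13.3 and 15.9 CPM with Nanog. Housekeeping genes held 7 members, 0 higher and 1 lower. The lists differ in their counts, and no test says that any of them stands apart from members at large.

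**Figure D4:**
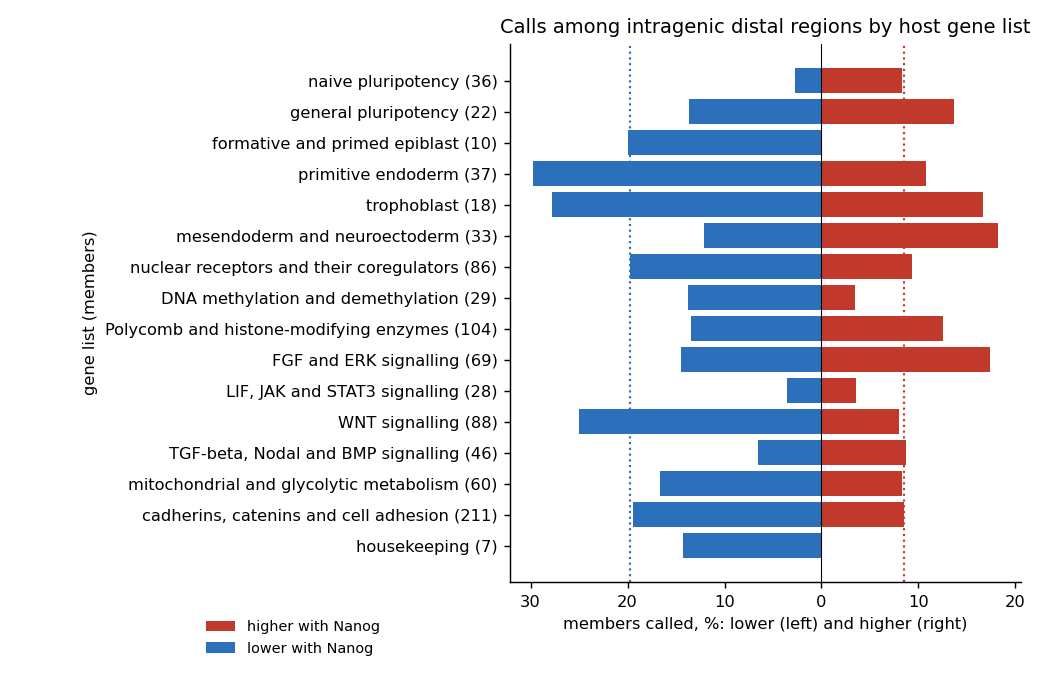
Percent of intragenic distal members called lower (left, blue) and higher (right, red) with Nanog in 16 lists of host genes, with the number of members in parentheses and dotted lines at the shares over all members (19.7% and 8.54%). Bars of short lists rest on few regions, such as the 11 of 37 lower in primitive endoderm and the 2 of 10 in formative and primed epiblast.

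Regions of 1 gene did not always move as a unit. Of the 690 host genes with 2 or more called members, 83 had only higher calls, 331 only lower calls and 276 both. Over all members 1140 (8.54%) were higher and 2637 (19.7%) lower. What this mix alone would give per gene was not computed, so nothing is read from these counts. Neighbouring members of a gene were alike where they were close. Over 904 neighbouring pairs with centres up to 2 kb apart the log2 fold changes had a Pearson correlation of 0.37, and 66 of the 73 pairs with both called had the same call. At 2 to 5 kb the correlation was 0.25 (n = 1171 pairs), at 5 to 10 kb 0.15 (n = 1155) and at 50 to 100 kb 0.09 (n = 696). Neighbours in different genes had 0.13 at 5 to 10 kb (n = 72) and 0.07 at 50 to 100 kb (n = 1221). These pairs share the libraries and their scaling, and the correlations are a description. The same holds for the 66 pairs with the same call, since lower calls were more frequent in all members and their expected number was not computed.

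The genes with most members show both patterns. Magi1, for a scaffold of cell junctions, held 28 members over 608 kb, of which 8 were lower and none higher. All 8 lay between 80.3 and 261 kb from the gene start, and the strongest had 96.6, 93.4 and 102 CPM without and 56.0, 63.6 and 66.9 CPM with Nanog. Macrod2, for a hydrolase of ADP-ribose and one of the longest hosts, held 20 members, 10 lower and 2 higher. The largest fall there was -1.43 ± 0.15 (SE), from a mean of 58.0 to 21.7 CPM, and the strongest member with Nanog was one of the higher ones, with 38.8, 41.8 and 44.7 CPM without and 58.5, 54.0 and 55.4 CPM with Nanog. That rise of 0.41 ± 0.12 (SE; edgeR, adjusted p = 0.0163) missed the threshold without library A or C with Nanog (0.0740 and 0.0574) and without library A without Nanog (0.0571). Pde4d, for a phosphodiesterase that breaks down cyclic AMP, had 7 of 28 members higher and 6 lower. A pair of these lay side by side: at 862 kb from the gene start the signal fell from a mean of 33.3 to 18.9 CPM, and at 865 kb it rose from 9.41 to 19.1 CPM. Its strongest member had 67.9, 71.0 and 69.0 CPM without and 68.4, 75.9 and 70.3 CPM with Nanog, and was not called. Msi2, for an RNA-binding protein of stem cells, had 4 higher and 4 lower of 28, and 2 of the higher ones lay at 314 and 316 kb from the gene start. The one at 314 kb rose from a mean of 20.7 to 54.3 CPM (1.39 ± 0.14, SE).

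**Figure D5:**
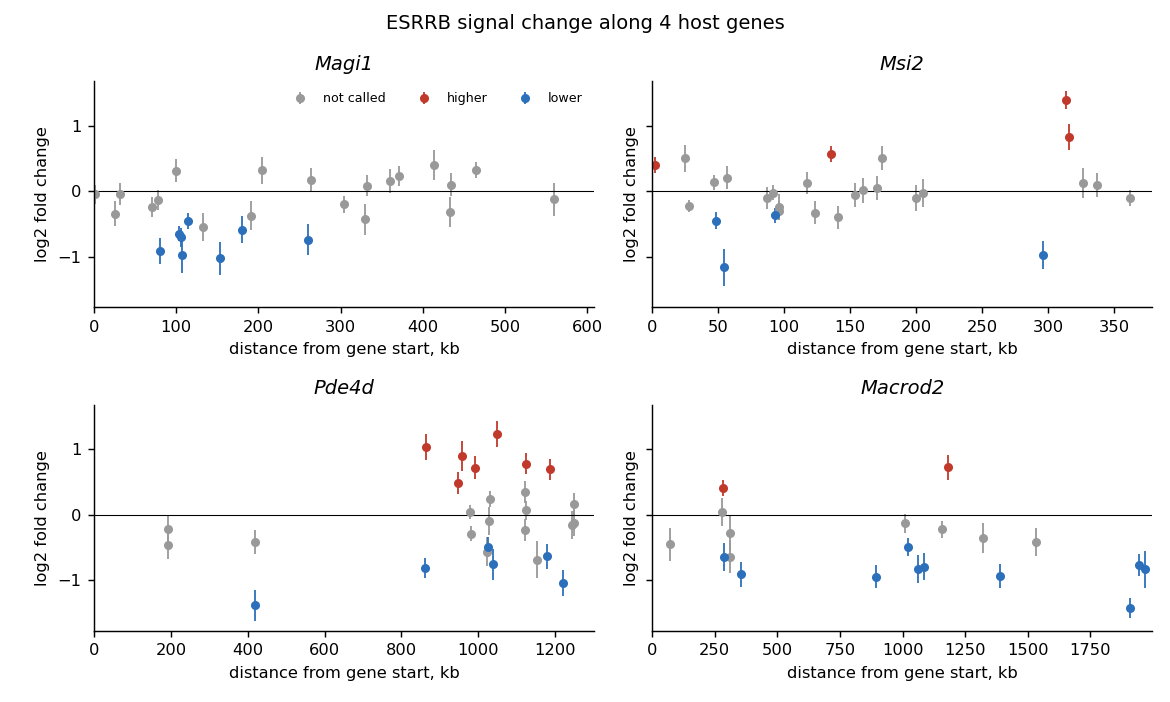
Log2 fold change of ESRRB signal, with over without Nanog, at each member of Magi1, Msi2, Pde4d and Macrod2 against distance from the gene start in kb; points are regions, bars are 1 SE, and colours mark calls. In Magi1 calls are lower only, while Pde4d holds both higher and lower calls from 862 kb on.

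The other genes with at least 20 members were Etl4 (27 members, 4 higher, 4 lower), Auts2 (23, 1 and 5), Gse1 (20, 1 and 4), Pitpnc1 (20, 1 and 5) and Tns3 (20, 3 and 1). In Pitpnc1, for a lipid transfer protein, the strongest member had 242, 190 and 208 CPM without and 134, 116 and 142 CPM with Nanog, a fall of 0.70 with SE 0.10 (edgeR, adjusted p = 9.44e-06). In Auts2, for a protein of the nervous system linked to Polycomb complexes, the strongest had 25.7, 22.7 and 32.7 CPM without and 40.2, 42.9 and 48.9 CPM with Nanog, a rise of 0.68 ± 0.15 (SE; edgeR, adjusted p = 0.0013). That member was the strongest of Auts2 with Nanog, while another was the strongest without Nanog and was lower, from a mean of 40.2 to 26.5 CPM. Separate cultures are not named in the labels, so all adjusted p-values measure the spread between libraries, which may be technical. Nanog cannot be told apart here from any other difference between the 2 lines.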

How the data were processed

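ESRRB ChIP was analysed in 6 libraries, 3 per line. The values deposited by the authors are whole-number counts of reads for each region, not normalised. Their peak lists hold positions alone. Tools named in the submitters' processing notes are MACS2, deepTools, Bowtie2, bedtools 2.26.0, SAMtools 1.4.1 and bcl2fastq 2.19.1, with the build mm10. No peak threshold, removal of duplicate reads or read counter was stated there. Table columns are lettered, and no label ties a letter to a numbered sample, which leaves the line as the group of each column. Gene spans, symbols and start windows are from RefSeq on GRCm38.p6, and all coordinates are 1-based. 

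Libraries held 2734338 to 8382646 counts in regions. In R 4.3.3 with edgeR 4.0.16, filterByExpr removed 1309 regions and left 84892. These were scaled by TMM and tested with glmQLFit and glmQLFTest on the line alone, adjusted by Benjamini-Hochberg over all regions at 0.05. The prior count in log-CPM was 2. A standard error is the log2 fold change divided by the root of its F value. Libraries of a line were not duplicates (chi-square per degree of freedom 1.34 to 2.53). On simulated data for the comparison with against without Nanog over 84892 regions, 6 of 67 regions changed 1.5-fold were called, 26 of 67 changed 2-fold and 66 of 66 changed 4-fold, with 3 of 84692 unchanged ones.

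The regions, the gene lists and the rule for named regions were chosen with earlier results of these data known. That rule takes 12 increases, 12 decreases and the 10 strongest members as described in the text, each with 1 region per host gene. It also takes the genes with most members (9, after a tie) and up to 3 genes per list at their strongest member. A fixed set of regulators and the regions next to the distance limit complete it. The text gives part of these in full; some named regions and 1 gene list are not reported here. Counts per gene within lists and the regions at start windows were picked after their values were seen. Where several spans held a region, the shortest was its host (108 members). Motifs and GC content of whole regions and exon or intron position had been planned and were not analysed, for want of a genome here. Alternatives covered scaling, DESeq2 1.42.0, voom of limma 3.58.1, count filters, a loess offset, thinning, a block by letter, autosomes, each library left out, and the distance, overlap and span rules.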

Additional observations from a re-analysis of the deposited data

How the results depend on the processing

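The 1140 higher and 2637 lower members and their median log2 fold change of -0.18 were recomputed under each alternative. The median stayed below 0 in all of them, and no called member changed sign in any other fit. TMM over the members alone gave 1891 higher, 1381 lower and a median of -0.019. The median was -0.14 with column totals alone, -0.14 with a loess offset on signal and -0.10 with a mean count of at least 50, where fewer regions are tested. Thinning to equal totals left 1612 lower members. Requiring that each peak list cover at least 50% of a region left 469 higher members and a median of -0.28. The cause of these shifts was not tested. DESeq2 called 881 higher and 1827 lower. With each library left out in turn, higher members ranged from 738 to 1310 and lower ones from 1463 to 2880. With the replicate block by column letter 1531 members were higher and 3436 lower, and all 3777 calls were kept. Libraries of the same letter deviated together with correlations of 0.08, 0.22 and 0.13, and no label says what a letter marks, so the letters were not taken as pairs.

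The regions followed one by one are those that the naming rule or a printed start sequence brought into the text. Called members over microRNA hairpins, and further members of Macrod2, Msi2, Auts2 and Pde4d, were not followed in this way. Of the 60 called regions followed, 9 lost the call in at least 1 alternative and none reversed. Of 16 uncalled ones, Msi2, Tet2 and Ddn gained a call in at least 1 alternative, and 9 changed sign. Msi2 was called without library B without Nanog (edgeR, adjusted p = 0.0121), Ddn without library A without Nanog (0.0405) and Tet2 without library C without Nanog (0.0428). With TMM over the members alone the log2 fold change was 0.067 for Btbd11, 0.14 for Jam2, 0.053 for Nr5a2, 0.076 for Srpk2, 0.058 for the strongest Lifr region and 0.060 for the Lifr start. With the loess offset it was 0.15 for Btbd11, 0.21 for Jam2, 0.071 for Nr5a2, 0.013 for Srpk2 and 0.12 for the strongest Lifr region. Jam2 had 0.018 with column totals and 0.0090 with upper quartile scaling, and after thinning Pde4d had -0.011 and Ccsap -0.16. Leaving out 1 library gave -0.20 to 0.0080 for Btbd11, -0.072 to 0.021 for Jam2, -0.091 to 0.17 for Siah1a and -0.055 to 0.086 for Ccsap. On simulated data 6 of 67 regions changed 1.5-fold and 26 of 67 changed 2-fold were called. Few regions were changed there, and they were drawn from all tested regions, with a median of 6.82 CPM without Nanog against 15.0 CPM in members. These shares therefore do not give the sensitivity among members.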

Other observations

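RefSeq microRNA hairpins overlapped 11 members, of which 3 were lower with Nanog and none higher. Over all members 19.7% were lower and 8.54% higher, and nothing is read from counts in 11 regions. They were looked for after the other values were seen. The member over Mir6961, in Bin2, had 10.1 ± 0.576 CPM without and 3.87 ± 0.745 CPM with Nanog (SD, n = 3), a log2 fold change of -1.37 ± 0.25 (SE; edgeR, adjusted p = 0.000208). The member over Mir7661, in the calcium channel gene Itpr1, had 15.5 ± 2.58 and 7.69 ± 1.76 CPM, a change of -1.02 ± 0.22 (edgeR, adjusted p = 0.00133). The member over Mir7228, in Syna, a captured retroviral envelope gene of the placenta, had 24.5 ± 1.44 and 17.5 ± 1.41 CPM, a change of -0.48 ± 0.16 (edgeR, adjusted p = 0.0363). The member over Mir135b, in Lemd1, had 22.3 ± 3.96 and 28.8 ± 2.34 CPM and was not called.

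Some host genes had most of their calls in 1 direction, which was noticed in the data and not tested. Ppp1r9a, for the actin-binding neurabin, had 8 of 10 members lower and none higher. Gtf2ird1 had 7 of 11 lower and none higher, and in Ank3, for ankyrin G, 8 of 19 were lower and 1 higher. Agbl4 had 8 of 14 lower with 1 higher, and Wwox 8 of 16 with 1 higher. In the other direction, Pknox2, for a TALE homeodomain factor, had 5 of 7 members higher and none lower, with a median log2 fold change of 0.51. Pakap had 5 of 18 higher and Arid5b 4 of 15, both with none lower. All 7 members of Sfi1 were lower, in the stretch of mm10 where reads from copies are uncertain.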
